A study of Mus musculus with 2 samples.

Results

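The genes described here encode the nuclear subunits of the mitochondrial respiratory chain and of ATP synthase, measured in blood-forming stem and progenitor cells of the mouse. Members were the genes whose current symbol starts with Ndufa, Ndufb, Ndufc, Ndufs or Ndufv and a number (complex I), is Sdha to Sdhd (complex II), or starts with Uqcr (complex III), Cox4 to Cox8 (complex IV) or Atp5 (complex V). In all, 84 genes with 113 probes met this rule, of 20655 gene symbols named on the array. They comprised 35 genes of complex I, 4 of complex II, 8 of complex III, 20 of complex IV and 17 of complex V. Ndufa4 and Ndufa4l2 carry a complex I name but were placed in complex IV, where the Ndufa4 protein is known to sit. The study compared LSK cells (negative for lineage markers, positive for Sca-1 and c-Kit, a gate that holds stem cells and multipotent progenitors) from 2 sources, with 1 Agilent 1-colour array each. The first sample came from bone marrow (BM) of wild-type C57BL/6 mice 8 weeks old. The other came from wild-type fetal liver (FL) at stage E14.5, for which the labels give no strain. Whether the samples share a strain is therefore not known here. Both were freshly sorted without transplantation, and the labels do not say whether cells of several animals were pooled.

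Complex I takes electrons from NADH and complex II takes them from succinate. Both hand them to ubiquinone, from which they pass through complex III, cytochrome c and complex IV to oxygen. Complexes I, III and IV pump protons, and complex V (ATP synthase) uses the proton gradient to make ATP. Each complex has a catalytic core inherited from bacteria, and in mammals all but complex II carry additional supernumerary subunits that serve assembly and stability. A few core subunits of complexes I, III, IV and V are encoded in mitochondrial DNA. They were matched by no probe named here and were not analysed. Adult haematopoietic stem cells are known for low respiration and reliance on glycolysis, whereas stem cells of the fetus divide more often.

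With 1 array per group there is no replicate check, no test across samples and no p-value. Values are the processed signal of each array, a linear brightness, and the log2 difference of FL minus BM after each signal was divided by its array's 75th percentile (178.9 in BM, 134.0 in FL). The value after ± is the technical error of that difference from the scanner software, not biological spread. It was nearly the same for all measured members, 0.20 to 0.21, so it does not tell their precision apart. A gene was called measured where its brightest probe passed the software's background flag (well above background) on 1 array or more, which held for 13386 genes. Of the 10 E1A spike-in probes, 8 were above background on both arrays, and after percentile scaling they were on average 0.38 higher in FL (SD 0.17). Scaling by these spike-ins instead, which sets the arrays per amount of input RNA, therefore lowers every difference by 0.38 and moves the median of all measured genes from 0.11 to -0.28. The signs of many members depended on this choice, so both scalings are given for the members described. A value printed alone is by percentile scaling and lies 0.38 lower by the spike-ins. Markers of the gate were present: Kit had a difference of 0.00 (-0.38 with spike-in scaling) and Ly6a, which encodes Sca-1, one of -2.28 (-2.66), with signals of 3846 in BM and 594 in FL. Of the 9 lineage panel genes on the array, 5 were above background on both arrays, among them Itgam (4910 and 3883), Cd4 (1211 and 1067) and Cd3e (838 and 898). The differences of these 5 ran from -0.30 to 1.33 (-0.69 to 0.94 with spike-in scaling). By percentile scaling 1 of them, not named here, was at least 2-fold higher in FL and 0 in BM, against 6.72% and 8.17% of all measured genes. The summed signal of 11 erythroid markers was 38052 in BM and 117174 in FL, with 4 at least 2-fold higher in FL. The brightest probe carried that rise in summed signal. In sums made after the data were seen and not scaled between arrays, the 10 other markers had 21081 in BM and 16024 in FL. After percentile scaling 7 of the 9 measured erythroid markers were at least 1.5-fold higher in FL, against 17.5% of all measured genes. Another 2 were below 0, and the median was 0.79 (0.40 with spike-in scaling). The summed signal of 11 neutrophil markers was 147216 and 88779, with 7 at least 2-fold higher in BM. The brightest gene held 79.8% and 82.2% of these sums, and the 10 others had 29684 and 15792. The part of these cell types in the differences below was not tested, and in sorted bulk samples fewer cells of a type and less RNA per cell cannot be told apart.

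The respiratory chain was strongly expressed in both samples. Of the 84 members, 80 were well above background on both arrays and 77 had a signal above 1000 on both. The remaining 4, Cox7b2, Cox8b, Cox8c and Ndufa4l2, were above background on neither array, and no member was above it on 1 array only. Probes of the members held 1.49% of the total signal of the BM array and 1.71% of that of the FL array. Relative to the 75th percentile, 74 of the 80 measured members were higher in FL, with a median log2 difference of 0.36 (quartiles 0.21 and 0.52, range -0.55 to 1.52). Of all measured genes, 57.8% were higher in FL. With spike-in scaling 38 of the 80 members were higher in FL, against 28.7% of all genes, and their median was -0.02. The members' median exceeded that of all measured genes by 0.25. This gap is the same under either scaling by construction, because the spike-ins shift all genes alike. It was 0.18 under quantile normalization and 0.17 under normexp background correction. Among genes with a mean signal of at least 1000, the 77 members had a median of 0.36 and all 4537 such genes one of 0.16 (-0.03 and -0.23 with spike-in scaling).

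**Figure D1:**
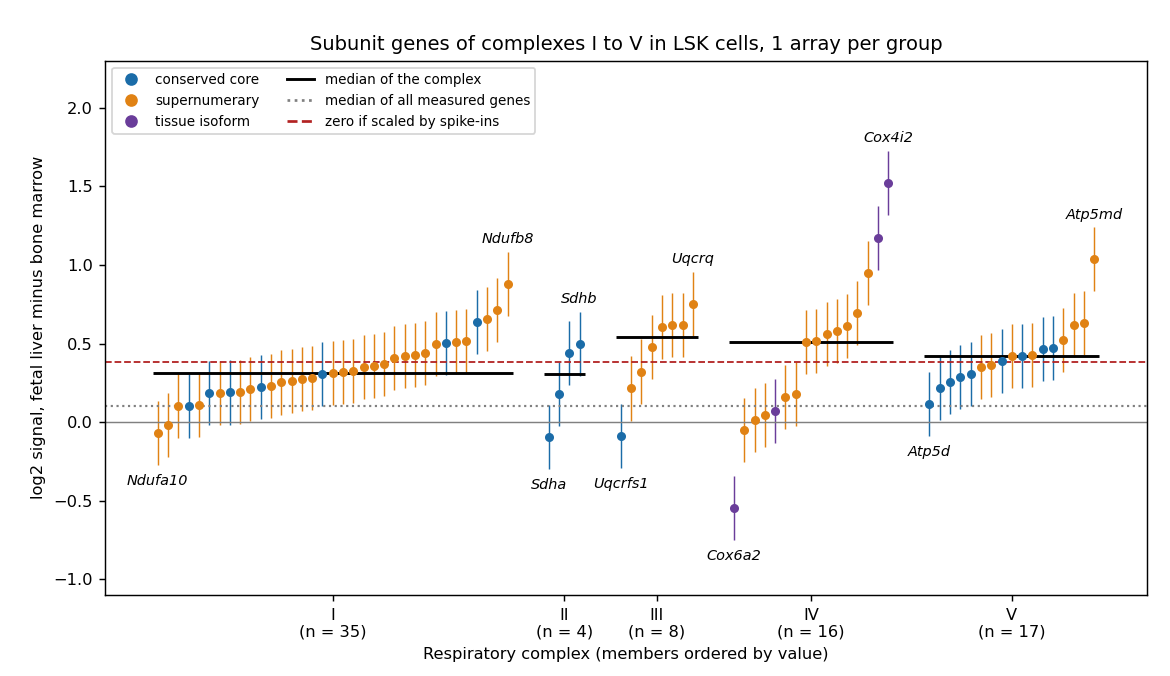
Log2 difference (FL minus BM, scaled by the 75th percentile) of the 80 measured members, 1 point per gene ordered by value within complexes I to V; vertical bars are the technical error, horizontal bars the median of each complex, the dotted line the all-gene median of 0.11 and the dashed line the zero of spike-in scaling. Most points lie between 0 and 1 and the medians of complexes III and IV are 0.54 and 0.51. With spike-in scaling every point moves down by 0.38, so that 38 of the 80 stay above 0.

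Large differences were few. At least 1.5-fold higher in FL were 16 of the 80 members (20.0%), against 17.5% of all measured genes, a share near the background. No member was at least 1.5-fold higher in BM, against 14.9% of all genes. At least 2-fold higher in FL were 3 members (3.75%), Cox4i2, Cox7a1 and Atp5md, against 6.72% of all genes, and none was at least 2-fold higher in BM, against 8.17%. The members thus lay in a narrower band than the genes as a whole, whose quartiles were -0.29 and 0.44. Dim genes add to that spread, and 77 of the members were bright. The 4537 genes with a mean signal of at least 1000 had quartiles of -0.14 and 0.41. Of these bright genes 14.2% were at least 1.5-fold higher in FL and 9.92% in BM. At least 2-fold higher were 3.33% in FL and 5.42% in BM. With spike-in scaling 3 members were at least 1.5-fold higher in FL (7.10% of all genes) and 1, Cox6a2, at least 1.5-fold higher in BM (29.6% of all genes). By the same scaling 1 member, Cox4i2, was at least 2-fold higher in FL (3.58% of all genes) and none was in BM (14.3%).

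**Figure D2:**
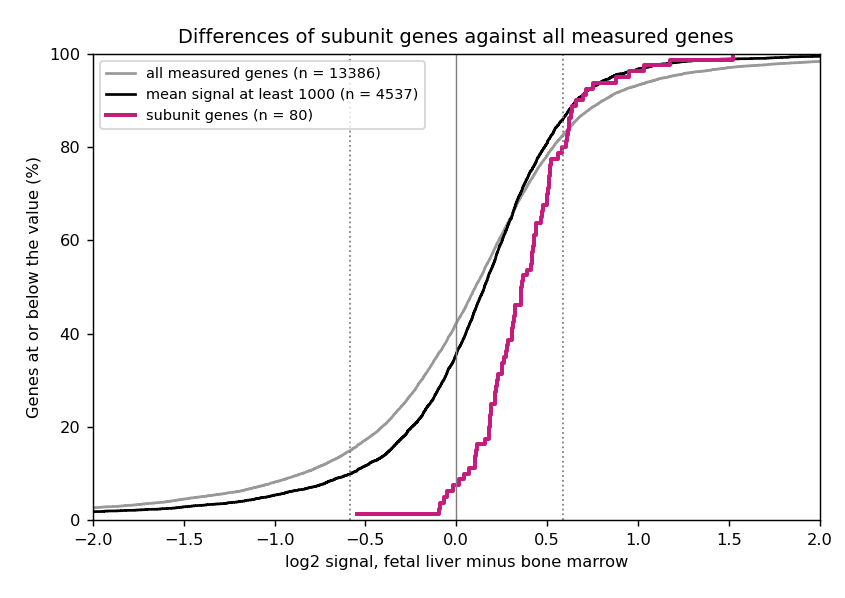
Cumulative share of genes (y axis) by log2 difference, FL minus BM (x axis), for the 80 members, all 13386 measured genes and the 4537 with a mean signal of at least 1000; dotted lines mark 1.5-fold in either direction. The members' curve rises steeply between their quartiles of 0.21 and 0.52, while that of all genes spreads from -0.29 to 0.44; spike-in scaling moves all curves left by 0.38.

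Complex I, the NADH dehydrogenase, had a median difference of 0.31 over its 35 members. Of these 33 (94.3%) were higher in FL, against 57.8% of all measured genes. At least 1.5-fold higher were 4 (11.4%), a smaller share than the 17.5% of all genes. With spike-in scaling the median was -0.07, 12 members (34.3%, against 28.7% of all genes) were higher in FL and none was 1.5-fold apart. Ndufb8, a supernumerary subunit of the distal membrane arm, had signals of 35012 in BM and 48302 in FL, a difference of 0.88 ± 0.20 (0.50 with spike-in scaling). Ndufb4, of the same arm, had signals of 23944 and 29450 (0.71 ± 0.20, and 0.33 with spike-in scaling). These were the 2 highest differences of the complex, and their signals were higher in FL even before any scaling. Ndufc1, of the proximal membrane arm, had signals of 14526 and 17170, a difference of 0.66. Ndufv2, which carries an iron-sulfur cluster of the NADH-oxidising tip, had signals of 13088 and 15241, a difference of 0.64, and was the only one of the 21 core subunits among the members past 1.5-fold; with spike-in scaling these 2 differences were 0.27 and 0.25.

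At the other end, the lowest members of complex I were nearly level between the samples. Ndufa10 of the proximal arm had signals of 2276 and 1626, a difference of -0.07 (-0.45 with spike-in scaling). Ndufa6, a small subunit of the matrix arm, had signals of 11880 and 8786 (-0.02, and -0.40 with spike-in scaling). Both differences were smaller than the technical error of 0.20 under percentile scaling. Ndufa1 had signals of 14869 and 11970, a difference of 0.10 (-0.28 with spike-in scaling). Grouped by the part of the enzyme they build, the members differed little. The N module, which oxidises NADH, had a median of 0.27 over 10 genes, the Q module, which reduces ubiquinone, 0.31 over 5, the proximal membrane arm 0.32 over 9 and the distal membrane arm 0.36 over 11. With spike-in scaling these medians were -0.12, -0.08, -0.07 and -0.03. In the distal arm all 11 members lay above 0 (4 with spike-in scaling). In the N module 9 did and in the proximal arm 8 did (3 and 3 with spike-in scaling). The iron-sulfur subunits Ndufs7 and Ndufs8 of the Q module had differences of 0.50 and 0.31 (0.12 and -0.08 with spike-in scaling).

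Complex II, succinate dehydrogenase, is also an enzyme of the citric acid cycle and has no mitochondrially encoded subunit. Its 4 members did not move as a unit. The flavoprotein Sdha, which holds the succinate site, had signals of 7769 in BM and 5452 in FL, a difference of -0.09 ± 0.20. The iron-sulfur subunit Sdhb had signals of 32447 and 34325, a difference of 0.50. The membrane anchors Sdhc (4976 and 4216) and Sdhd (11482 and 11649) had differences of 0.18 and 0.44. Sdhb and Sdhd were thus above the median of all genes by more than the technical error, and Sdha was not. With spike-in scaling Sdhb and Sdhd were at 0.11 and 0.05, and Sdha and Sdhc at -0.48 and -0.21. No member of complex II was 1.5-fold apart under either scaling, and the median was 0.31 (-0.08 with spike-in scaling).

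The promoters of this pair of subunits are printed because both hold a binding motif of nuclear respiratory factor 1 (NRF-1), a regulator known for respiratory chain genes, while their differences were -0.09 and 0.44. The sequences are from RefSeq (GRCm38.p6), 250 bases before to 30 bases after the gene's start, 5′ to 3′ on the gene's own strand, which is the minus strand for both: Sdha at chr13:74350211-74350490 and Sdhd at chr9:50603820-50604099. Capitals mark matches to GCGC, any base and TGCGC (NRF-1) or CCGGAAG (GA-binding protein, GABP, also called NRF-2) on either strand.
Sdha: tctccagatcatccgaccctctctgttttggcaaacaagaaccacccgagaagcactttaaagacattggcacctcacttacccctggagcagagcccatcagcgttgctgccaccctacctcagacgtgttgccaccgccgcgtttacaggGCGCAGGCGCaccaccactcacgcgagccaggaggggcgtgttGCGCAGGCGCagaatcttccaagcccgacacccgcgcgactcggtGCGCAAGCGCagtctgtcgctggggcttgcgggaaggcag
Sdhd: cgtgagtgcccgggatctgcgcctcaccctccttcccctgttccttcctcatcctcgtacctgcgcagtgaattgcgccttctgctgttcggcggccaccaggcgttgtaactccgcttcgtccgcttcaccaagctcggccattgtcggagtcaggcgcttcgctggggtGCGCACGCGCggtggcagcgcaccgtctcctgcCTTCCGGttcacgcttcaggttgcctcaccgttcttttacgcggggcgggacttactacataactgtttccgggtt
Sdha holds 3 NRF-1 matches, which begin at -98, -55 and -10 relative to the gene's first base. Sdhd holds 1 NRF-1 match, beginning at -79, and 1 GABP match, beginning at -46.

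Complex III, ubiquinol-cytochrome c reductase, had a median of 0.54 over 8 members (0.16 with spike-in scaling), close to the 0.51 of complex IV and with an order between them that turned under normexp (0.33 against 0.37) and was level under quantile normalization (0.39 each). The exception was its catalytic member. Uqcrfs1, the Rieske iron-sulfur protein and the only core subunit covered by the rule, had signals of 9834 in BM and 6935 in FL, a difference of -0.09 ± 0.20 (-0.47 with spike-in scaling). The large structural subunits Uqcrc1 and Uqcrc2 had differences of 0.48 and 0.32 (0.09 and -0.06). Uqcrc2 was printed as replicate spots and gives the precision within an array: 10 spots had a mean signal of 11700 with an SD of 210 in BM, and 9 spots a mean of 10960 with an SD of 198 in FL. The hinge protein Uqcrh had signals of 66153 and 57501, a difference of 0.21 (-0.17 with spike-in scaling).

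The 4 other small subunits of complex III were all at least 1.5-fold higher in FL under percentile scaling and none was under spike-in scaling. Uqcrq had signals of 41141 and 51865, a difference of 0.75 ± 0.20 (0.37 with spike-in scaling). Uqcr10 had signals of 30782 and 35465, a difference of 0.62, and Uqcr11 34434 and 39637, also 0.62. Uqcrb, which contacts the ubiquinone-reducing site, had signals of 19497 and 22231, a difference of 0.61. With spike-in scaling these 3 were at 0.24, 0.23 and 0.22. All 4 unscaled signals were higher in FL, whereas those of Uqcrfs1, Uqcrh and Uqcrc2 were lower. Normexp background correction placed all 8 below 1.5-fold, with a median of 0.33.

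Complex IV, cytochrome c oxidase, was the most spread of the complexes. Of its 20 members, 16 were measured, with differences from -0.55 to 1.52 and a median of 0.51 (0.13 with spike-in scaling). Its catalytic core is mitochondrially encoded, so every member here is a supernumerary subunit, and several exist as a ubiquitous form and a form restricted to certain tissues. Among the ubiquitous forms, Cox7b had signals of 29502 in BM and 42681 in FL, a difference of 0.95 ± 0.20, or 1.93-fold (0.56 with spike-in scaling). Cox7a2 had signals of 17042 and 20672 (0.69), and Cox7c 16210 and 18556 (0.61). Cox6c and Ndufa4 lay just under 1.5-fold, at 0.56 and 0.58. With spike-in scaling Cox7a2, Cox7c, Cox6c and Ndufa4 were at 0.31, 0.23, 0.18 and 0.20.

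Several abundant ubiquitous subunits of complex IV were nearly level between the samples under percentile scaling. Cox5a, which is part of an early assembly intermediate, had signals of 52394 and 39675, a difference of 0.02 (-0.37 with spike-in scaling). Cox7a2l, a Cox7a-related protein that joins complexes III and IV into supercomplexes, had signals of 75704 and 54834, a difference of -0.05 (-0.43). Cox8a had signals of 110355 and 85169, a difference of 0.04 (-0.34). These 3 lay within the technical error of 0 under percentile scaling and all were lower in FL under spike-in scaling. Cox5b and Cox6a1 had differences of 0.16 and 0.18 (-0.22 and -0.21). The subunits of complex IV thus fell on both sides of the all-gene median of 0.11.

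The largest differences among all members were in tissue forms of complex IV with dim probes. Cox4i2, a form of subunit 4 known from lung, had signals of 162 in BM and 349 in FL, a difference of 1.52 ± 0.21 or 2.87-fold, and 1.14 with spike-in scaling. Cox7a1, the heart and muscle form of subunit 7a, had signals of 251 and 425, a difference of 1.17 ± 0.20 or 2.26-fold, and 0.79 with spike-in scaling. Cox6a2, the heart and muscle form of subunit 6a, went the other way with signals of 687 and 352, a difference of -0.55 ± 0.20 (-0.93 with spike-in scaling). The direction of these 3 was the same under every alternative processing. The partner forms were bright on both arrays: Cox4i1 had signals of 64880 and 69171 (0.51, and 0.12 with spike-in scaling), while Cox7a2 and Cox6a1 are given above. Cox6b2, known from testis, had signals of 1538 and 1210 (0.07, and -0.31 with spike-in scaling), and its ubiquitous partner Cox6b1 4683 and 5017 (0.52 and 0.13). Cox7b2, Cox8b and Cox8c had signals of 2.10 to 2.92, near the negative control medians of 2.70 and 2.27, and Ndufa4l2 had signals of 6.75 and 12.04 without passing the background flag. Brightness differs between probes for reasons other than transcript number, so no form was ranked against its partner by level. Without the 8 tissue forms the median of complex IV stayed at 0.51, and 3 members rather than 5 were at least 1.5-fold higher in FL.

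**Figure D3:**
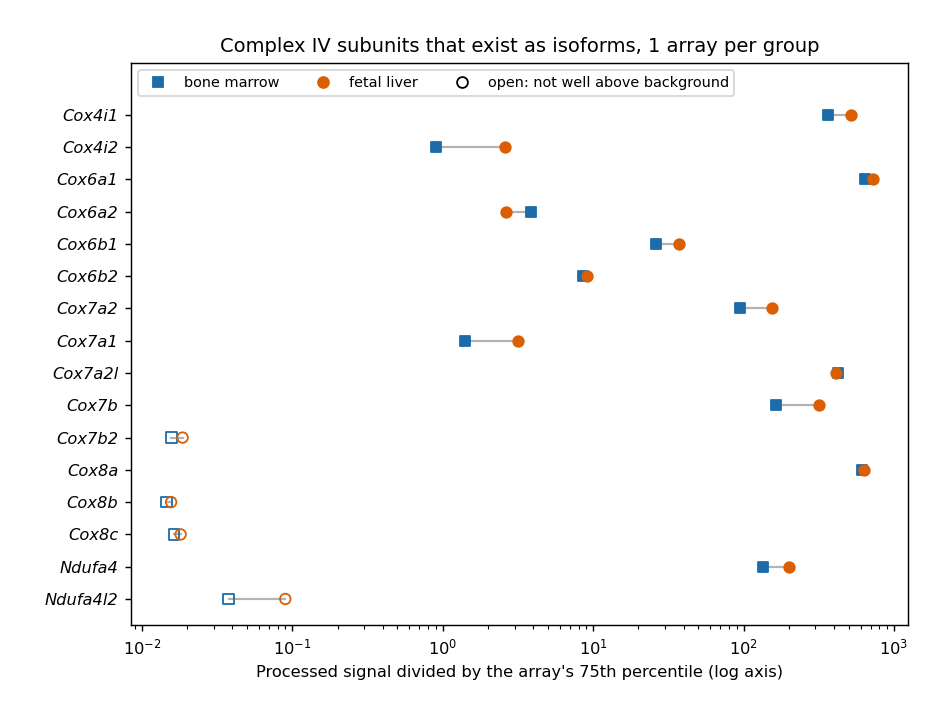
Processed signal divided by the array's 75th percentile (log axis) on the BM and FL arrays for complex IV genes that exist as isoforms, 1 array per group; open symbols were not well above background. Cox4i2 and Cox7a1 lie to the right in FL and Cox6a2 in BM, all also with spike-in scaling, and Cox7b2, Cox8b, Cox8c and Ndufa4l2 are open on both arrays. Rows come from different probes and their levels are not comparable.

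The promoters of Cox7b, Cox7a2 and Cox7a1 are printed because these 3 subunits of neighbouring number were all at least 1.5-fold higher in FL by the 75th percentile scaling (only Cox7a1 by spike-ins) and none of the 3 windows holds a match to the motifs searched. They are from RefSeq (GRCm38.p6), with the same window and orientation: Cox7b at chrX:106015450-106015729 on the plus strand, Cox7a2 at chr9:79759824-79760103 on the minus strand and Cox7a1 at chr7:30183921-30184200 on the plus strand.
Cox7b: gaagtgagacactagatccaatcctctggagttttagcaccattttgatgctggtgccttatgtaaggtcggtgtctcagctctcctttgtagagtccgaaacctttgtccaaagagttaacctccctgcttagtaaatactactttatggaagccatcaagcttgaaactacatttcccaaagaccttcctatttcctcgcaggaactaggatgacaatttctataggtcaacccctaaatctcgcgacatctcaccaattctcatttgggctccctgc
Cox7a2: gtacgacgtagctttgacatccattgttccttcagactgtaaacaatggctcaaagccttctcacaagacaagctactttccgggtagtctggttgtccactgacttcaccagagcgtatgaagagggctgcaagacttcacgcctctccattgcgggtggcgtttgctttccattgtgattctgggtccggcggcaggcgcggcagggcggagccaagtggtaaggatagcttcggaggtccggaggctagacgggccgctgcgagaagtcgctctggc
Cox7a1: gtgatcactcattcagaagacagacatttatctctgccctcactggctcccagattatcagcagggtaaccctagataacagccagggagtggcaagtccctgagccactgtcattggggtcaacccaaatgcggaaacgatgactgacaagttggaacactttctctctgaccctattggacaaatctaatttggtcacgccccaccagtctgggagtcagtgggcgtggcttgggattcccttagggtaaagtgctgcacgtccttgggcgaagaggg
All letters are in lower case because there is no match to mark, which says only that these letters are absent from these windows.

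Complex V, ATP synthase, had the closest quartiles of the complexes, 0.31 and 0.47, though its range of 0.12 to 1.04 was wider than those of complexes II and III. All 17 members were above 0, with a median of 0.42, and 10 were with spike-in scaling, with a median of 0.03. The F1 head and central stalk, which hold the catalytic sites, had a median of 0.29 over 5 genes, and the membrane part and peripheral stalk one of 0.45 over 12 (-0.10 and 0.06 with spike-in scaling). Atp5b, the catalytic beta subunit, had signals of 77561 in BM and 70879 in FL, a difference of 0.29 (-0.10 with spike-in scaling). Atp5a1, the alpha subunit, had signals of 40763 and 36398 (0.25, and -0.13). Atp5d, the delta subunit of the central stalk, was lowest in the complex with signals of 14137 and 11477 (0.12, and -0.27). All 3 signals were lower in FL before scaling. The subunit c ring is encoded by 3 genes for the same mature protein, and their differences were 0.47 for Atp5g1, 0.22 for Atp5g2 and 0.31 for Atp5g3 (0.08, -0.17 and -0.08). The signals of Atp5g2 were 120409 and 104864, below saturation as all others were.

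The small membrane subunits of ATP synthase held the 3 members past 1.5-fold, 17.6% of the complex against 17.5% of all measured genes. Atp5md, a small protein of the membrane part known as DAPIT that takes part in joining ATP synthase dimers, had signals of 27044 and 41551, a difference of 1.04 ± 0.20 or 2.05-fold (0.65 with spike-in scaling). Atp5l, subunit g, had signals of 51169 and 59449, a difference of 0.63 (0.25). Atp5j2, subunit f, had signals of 45410 and 52170 (0.62, and 0.23). Atp5l and its neighbour in the dimer contact Atp5k, subunit e, at 0.52 (0.14 with spike-in scaling), lay above the median of the complex. Of these 4 genes Atp5md alone was read by 1 probe.

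The promoter of Atp5md is printed because it had the largest difference of the bright members and holds a GABP match. It lies at chr19:47090618-47090897 on the minus strand (RefSeq, GRCm38.p6), with the match to CCGGAAG, read here from the other strand, in capitals.
Atp5md: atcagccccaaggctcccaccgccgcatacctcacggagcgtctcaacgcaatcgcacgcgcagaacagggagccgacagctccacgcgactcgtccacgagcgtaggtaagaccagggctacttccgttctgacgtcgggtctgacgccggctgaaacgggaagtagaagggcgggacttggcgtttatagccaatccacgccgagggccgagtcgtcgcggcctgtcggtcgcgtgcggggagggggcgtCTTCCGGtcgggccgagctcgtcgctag
The match starts 2 bases downstream of the gene's start.

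Across all members with a promoter in the RefSeq table, 68 of 84 genes, the NRF-1 motif stood in 16 (23.5%), against 4.41% of all 32851 windows of this length in the table and 10.1% of 10729 measured genes. The GABP motif stood in 17 (25%), against 8.45% of all windows and 17.8% of measured genes. The motif AAGATGGC of YY1, a further regulator of mitochondrial genes, stood in 4 (5.88%), against 2.29% and 3.90%. Each motif was searched on both strands, and the letters of the 3 do not contain one another. The members' differences hardly varied with these letters. Members with the NRF-1 motif had a median difference of 0.40 and those without it 0.36, and the medians with and without the GABP motif were 0.41 and 0.35. Spike-in scaling lowers each of these medians by the same 0.38. A motif match is a description of the sequence, and no binding was measured.

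By role rather than by complex, the members split between core subunits conserved from bacteria and supernumerary ones, a division made after the values were seen. The 21 core subunits had a median of 0.29, with 1 (4.76%) at least 1.5-fold higher in FL. The 55 supernumerary subunits, tissue forms left out, had a median of 0.41, with 13 (23.6%). Of all measured genes the share was 17.5%, and of those with a mean signal of at least 1000 it was 14.2%. With spike-in scaling the medians were -0.10 and 0.02. By that scaling 0 core and 1 supernumerary subunit (1.82%) were at least 1.5-fold higher in FL, against 7.10% of all genes. Within complex V the medians were 0.31 for 9 core and 0.48 for 8 supernumerary subunits, and within complex I 0.23 for 7 and 0.32 for 28. With spike-in scaling they were -0.08 and 0.09 for complex V, and -0.16 and -0.06 for complex I. No test of these gaps was made.

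Many small subunits have processed pseudogenes, and 18 of the 105 reference genes that match the name rule are annotated as pseudogenes, so a probe can detect related transcripts. For the 22 members with more than 1 probe, the log2 differences of the probes of a gene spanned a median of 0.07, and 19 genes spanned less than 0.2. The 5 probes of Atp5l ran from 0.56 to 0.66. For 20 of the 22 genes all probes had the same sign by the 75th percentile scaling. The exceptions were Sdhc, at -0.04 and 0.18, and Ndufb11, where a dim probe (266 and 151) gave -0.40 and the bright one 0.25. Probes of a gene are not replicates, and this agreement covers only how the sequences were read within these 2 samples.

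Other genes of the pathway gave a mixed picture, shown as counts beside the same background of 17.5% and 14.9%. Genes of the chain that the name rule leaves out lay near the subunits: cytochrome c1 (Cyc1) at 0.64, cytochrome c (Cycs) at 0.48, the ATP synthase inhibitor Atpif1 at 0.45 and the acyl carrier Ndufab1 at 0.17, which were 0.25, 0.10, 0.07 and -0.21 with spike-in scaling. Of 17 assembly factors of complex I, 15 were above 0 and 3 at least 1.5-fold higher in FL, with a median of 0.26 and the largest differences in Tmem126b (1.07) and Ndufaf6 (0.82). Of 19 measured assembly factors of complex IV, 13 were above 0, with 4 at least 1.5-fold higher in FL and 1 in BM, and a median of 0.36. The copper-handling factors Coa4 (553 and 850, a difference of 1.04) and Coa6 (0.90) were the largest. The assembly factors of complexes II, III and V, 4, 5 and 2 measured genes, had medians of 0.39, 0.05 and 0.17, with Sdhaf3 (0.63) and Sdhaf1 (0.44), Uqcc2 (0.88) and Uqcc1 (0.35), and Tmem70 (0.37) and Atpaf2 (-0.03) as the largest of each. The genes listed as supercomplex factors, Cox7a2l among them, had a median of 0.17 over 4 genes, with Romo1 at 0.40 and Higd2a at 0.39. Placing Romo1 in this list was a choice made here, and its role in supercomplexes was not tested. With spike-in scaling 6 assembly factors of complex I and 8 of complex IV were above 0, Romo1 was at 0.02 and Higd2a at 0.00, and Uqcc1 (-0.04) and Tmem70 (-0.02) turned below 0.

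Regulators of mitochondrial biogenesis had a median of 0.36 over 14 genes, 12 above 0 and 4 at least 1.5-fold higher in FL under percentile scaling. Probes of a gene did not always agree. Gabpa, past 1.5-fold at 0.66, had another probe at -0.07, and those of Nrf1 ran from -0.37 to 0.23. The probes of a further regulator ran from -1.09 to -0.09. Of the 14, 1 was above background in BM only, so its value is a bound, and another had signals of 23.2 and 17.7. The 3 probes of Tfam ran from 0.25 to 0.42. The coactivator Pprc1 was at 0.73 and the mitochondrial transcription elongation factor Tefm at 0.69, both from dim probes (127 and 157, and 93.8 and 113). With spike-in scaling 6 were above 0, the median was -0.03 and these 2 were at 0.34 and 0.30. Genes for mitochondrial DNA replication had a median of 0.31 over 7 (Mgme1 0.56, Polg 0.47). The protein import machinery, which brings nuclear-encoded subunits into the organelle, lay on 1 side under percentile scaling: all 16 genes were above 0, 6 were at least 1.5-fold higher in FL and the median was 0.46, with Tomm5 at 0.89 and Timm10 at 0.80. With spike-in scaling 10 import genes were above 0 and none was 1.5-fold apart.

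The enzymes that feed and use the chain lay lower. The citric acid cycle had a median of 0.19 over 18 genes (Dld 0.88, Fh1 0.57), which include the 4 members of complex II. Pyruvate entry had one of 0.11 over 12 (Pdhx 1.24, Pdk2 -0.43), and ubiquinone synthesis 0.23 over 10 (Coq8a -0.93, Coq6 0.80). The other enzymes that pass electrons to ubiquinone had a median of 0.02 over 7. Among them Sqor, sulfide:quinone oxidoreductase, had signals of 1849 in BM and 232 in FL, a difference of -2.58, while Dhodh, of pyrimidine synthesis, was at 0.63. The carriers and uncoupling proteins had a median of 0.09 over 8. With spike-in scaling these 5 medians were -0.20, -0.27, -0.16, -0.36 and -0.29, all below that of the members. Ucp2 and Ucp3, neighbouring genes for mitochondrial carriers of the uncoupling family, had signals of 1510 and 561 (-1.01) and of 1686 and 619 (-1.03). Sqor, Ucp2 and Ucp3 were at least 2-fold higher in BM by percentile scaling, a size that no member reached in that direction. They necessarily stay so with spike-in scaling, which lowers every difference. Ucp2 and Ucp3 lay close to the 2-fold limit under percentile scaling.

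**Figure D4:**
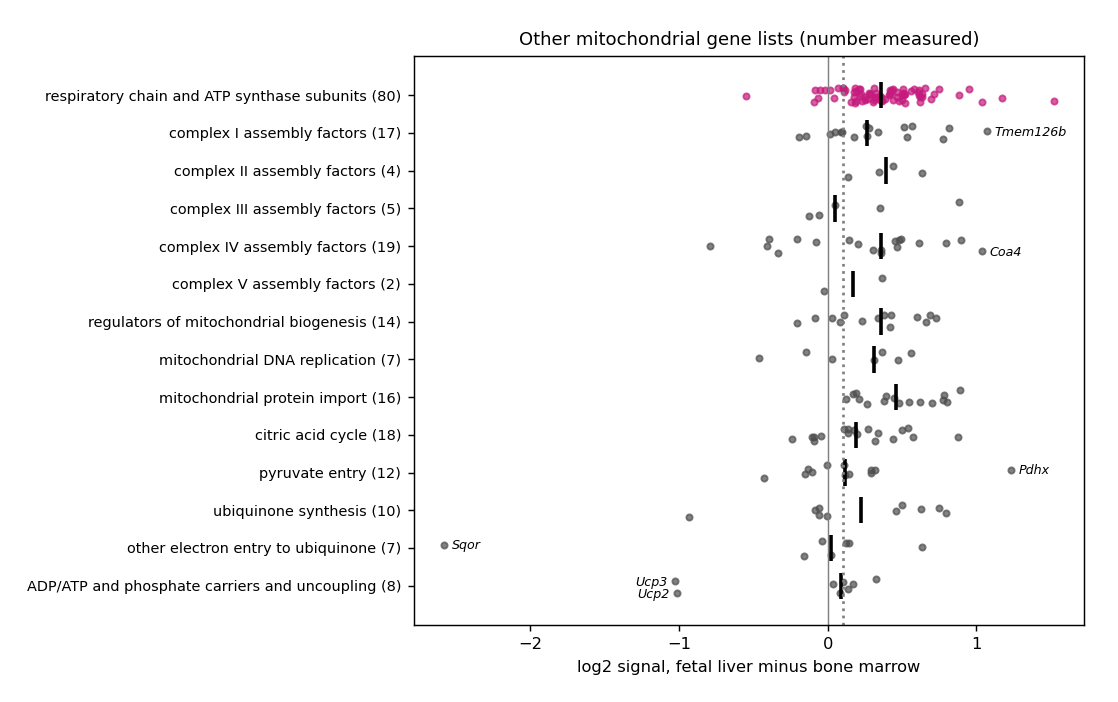
Log2 difference (FL minus BM, scaled by the 75th percentile) of the 80 members and of the genes of 13 other mitochondrial lists, 1 point per gene, with the list's median as a bar and the all-gene median of 0.11 dotted. Of the lists plotted, which leave out the chain genes outside the name rule, protein import has the highest median, 0.46, and Sqor, Ucp2 and Ucp3 lie at or beyond -1; with spike-in scaling every point moves left by 0.38.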

How the data were processed

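LSK cells from bone marrow (BM) and fetal liver (FL) were read on 1 array each, from 20 ng of total RNA with a spike-in mix. Per the file headers, the deposited intensity values come from Agilent Feature Extraction 10.7.1.1, run with background subtraction within each array and no scaling between arrays. Its flags of 0 or 1 mark spots well above background, saturated (none here) or outlying (137 and 122, left out). The deposited value table holds a linear ratio by the authors, which equalled the processed signal over 1 constant per array (178.6 and 133.9) within 0.1% for 99.99% of probes; the column medians were 0.0589 and 0.0604, it is neither logged nor centred, and the labels do not say how the constants were set.

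Each array held 59305 non-control spots. Repeated spots of a probe were averaged, log2 signals were scaled by the array's 75th percentile, and 47.4% and 46.4% of probes were well above background. Probes were named through their accession in a RefSeq gene table, which matched 27226 of 55664 probes, and a gene took its probe with the highest mean signal. No RefSeq promoter was matched for 16 members, and 21 genes that meet the name rule had no probe named here, 3 of them protein coding (Ndufb1, Ndufb4b and Ndufb4c). Some genes of these lists are not reported here by name. Atp5s and Atp5sl are Dmac2l and Dmac2 in that table, so are no members (-0.16 and -0.19).

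The members, lists and alternatives were chosen with earlier results of these data known. Named were, with signals, the 3 highest and 3 lowest members of each complex, all past 1.5-fold, the tissue isoforms with their partners, and, by difference, the 2 genes with the largest absolute difference of each other list. Other genes named as examples were chosen after their values were seen. Of the 7 marker lists, macrophage genes had summed signals of 5053 and 4597, endothelial and stromal genes 12332 and 13299, hepatocyte genes 14935 and 5172 (Alb, Apoa1, Ttr and Ahsg dim on both) and genes of the gate 90939 and 57460. The 6 measured hepatocyte genes went both ways, from -2.02 to 1.37. At least 2-fold higher were 1 in FL and 3 in BM, against 6.72% and 8.17% of all measured genes. With spike-in scaling these counts were 0 and 3, against 3.58% and 14.3%. The number of arrays limits the precision: no biological spread can be estimated, and slide and group cannot be told apart. Over 247 probes printed repeatedly, the median SD of the log2 difference between spots was 0.09, and over the 95 of them with a BM signal of at least 1000 it was 0.06. Alternatives were spike-in scaling, the percentile over detected probes, quantile normalization, normexp background correction (limma 3.58.1, R 4.3.3, offset 50, on the median spot signal, as the files used here give no mean), the mean of a gene's probes, no filter, probes above background on both arrays, the authors' ratio table, and leaving out tissue isoforms. Python 3.11.15 and pandas 2.3.3 did the rest, tested on simulated data.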

Additional observations from a re-analysis of the deposited data

How the results depend on the processing

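No paired analysis was possible because each group has 1 array, and no array could be left out. Spike-in scaling gave medians of -0.024 for all members, -0.070, -0.077, 0.16, 0.13 and 0.033 for complexes I to V, 38 members above 0 in place of 74, 3 in place of 16 at least 1.5-fold higher in FL (0, 0, 2 and 1 in complexes I, III, IV and V, in place of 4, 4, 5 and 3), 1 in place of 3 at least 2-fold higher and 1 in place of 0 at least 1.5-fold higher in BM. Over all genes it gave 950 in place of 2347 and 3966 in place of 1998 at least 1.5-fold higher in FL and BM, and 479 in place of 900 and 1910 in place of 1094 at 2-fold. Medians of the other lists under it were 0.10 for the 5 chain genes listed outside the name rule (Atp5md is among them through an older symbol), -0.12, 0.0052, -0.33, -0.028 and -0.21 for assembly factors of complexes I to V, -0.22 for supercomplex factors, -0.027 for biogenesis, -0.073 for DNA replication, -0.16 for ubiquinone synthesis, -0.36 for other electron entry, -0.29 for carriers, -0.20 for the citric acid cycle, -0.27 for pyruvate entry and 0.077 for import.

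The percentile over detected probes left 8 members at least 1.5-fold higher in FL (2, 1 and 1 in complexes I, III and V) and 1 in BM. Quantile normalization left 6 (1, 1, 3 and 1 in complexes I, III, IV and V). Normexp left 7 (0, 3 and 1 in complexes III, IV and V), 1 at 2-fold, a complex III median of 0.33, a median of 0.25 for the chain genes outside the rule, and 1252 and 1313 of all genes at 1.5-fold and 379 and 607 at 2-fold in FL and BM. Without the filter 3535 genes were at least 1.5-fold higher in FL, 1683 and 1659 were at 2-fold, and the ubiquinone list's median was 0.46. The mean of probes gave 0.068 for DNA replication. Without tissue isoforms 1 member was at 2-fold, and 3 of complex IV at 1.5-fold. The causes were not tested. The other 231 summary values moved by less than the technical error or stayed within 1.5 times. Of the 80 members, all 80 moved by more than the technical error under spike-in scaling, 19 under normexp and 1 under the mean of probes.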
